A study of Mus musculus with 12 samples.

Results

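The cytosolic ribosome is built from a large and a small subunit, and each protein in it is encoded by a gene named Rpl (large) or Rps (small). In mouse cells these genes are transcribed at high levels and their products are needed in matched amounts, so the family is usually expressed as a block. Many of the mRNAs begin with a cytosine and a run of pyrimidines, the terminal oligopyrimidine (TOP) element, through which growth signals set how much of the mRNA is translated and how stable it is. A few members have a second gene, a paralog such as Rpl39l or Rpl22l1, whose level differs between tissues, and the genome holds many processed copies of the family, made by reverse transcription of its mRNAs.

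The ribosomal protein genes described here were the rows of the count table whose symbol is Rpl or Rps with a number and, optionally, a suffix for a paralog, without pseudogene symbols and without the acidic stalk proteins named Rplp. Of 84 rows with such a symbol among 32544 genes, 79 had at least 10 counts in at least 3 libraries and were members, 48 of the large and 31 of the small subunit. The other 5 were Rpl10l, Rpl3l, Rpl6l, Rps12l1 and Rps27rt, which had 10 counts in at most 1 library. The member closest to the limit was Rps4l, with 21 to 53 counts in the 6 BMDM libraries, and just outside it was Rpl6l, with at most 11 counts in any library. All 79 passed the filter on low counts used for testing.

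Bone marrow-derived macrophages (BMDMs) had been grown for 7 days in medium with 15% of the supernatant of L929 cells, and RNA was taken 24 h after seeding. They came from mice with LysMCre, backcrossed to C57Bl6/J, and were labelled WT, or PHD2cko where PHD2 was conditionally deleted. LysMCre acts in myeloid cells, and both groups carried it. NIH/3T3 cells, an immortalized mouse fibroblast line of Swiss origin, had been starved and then kept for 72 h in medium conditioned by BMDMs of either label. Each of the 4 groups held 3 libraries with 15516465 to 25199770 counts. Nothing states that the 3 came from separate animals or cultures, so p-values measure the spread between these libraries, which may be technical.

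Egln1, which encodes PHD2, had 860, 904 and 913 estimated counts in the WT BMDMs and 1134, 1000 and 1364 in those labelled PHD2cko, so the label is used here as a name only. Of 23 macrophage markers, all were detected in BMDMs, with summed levels of 41800 to 47900 counts per 1e6 counts (CPM), and the 18 fibroblast markers summed to 35900 to 44700 CPM in the 3T3 libraries. The macrophage markers summed to 34.0 to 40.2 CPM in 3T3 cells in WT medium and to 238 to 1010 CPM in PHD2cko medium, with none of the 23 at 0 in either group. Of 14 markers of other cell types, 6 were at 0 in each group, and their sum was at most 57.1 CPM in 3T3 cells and at most 235 CPM in BMDMs. These marker sums are over the total count of each library, unlike the CPM of genes and members given below.

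To show where the family's mRNAs begin, 30 bases around the annotated start (15 before it, 15 from it on) were taken from RefSeq entries on GRCm38.p6 for members whose levels the results turn on. Capitals mark a C followed by at least 4 bases that are C or T, on the strand of the gene, which reached within 5 bases of the start. The first 4 hold such a run and the last 4 do not.
Rps6, chr4:86857353-86857382, minus strand: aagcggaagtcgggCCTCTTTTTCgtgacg
Rps21, chr2:180257364-180257393, plus strand: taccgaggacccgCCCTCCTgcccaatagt
Rps26, chr10:128626492-128626521, minus strand: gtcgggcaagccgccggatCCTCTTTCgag
Rpl22l1, chr3:28805493-28805522, plus strand: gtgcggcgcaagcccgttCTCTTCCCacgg
Rpl23, chr11:97782425-97782454, minus strand: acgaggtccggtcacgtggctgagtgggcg
Rpl22, chr4:152325711-152325740, plus strand: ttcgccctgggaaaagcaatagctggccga
Rpl7l1, chr17:46782642-46782671, minus strand: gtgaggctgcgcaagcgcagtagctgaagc
Rpl36al, chr12:69184053-69184082, minus strand: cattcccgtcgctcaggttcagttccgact
Among the 59 members with a RefSeq entry, 32 (54.2%) held such a run at a listed start, against 7230 of 27025 genes (26.8%) with an entry. The share was 54.1% of 37 large subunit members and 54.5% of 22 small subunit members. An annotated start can differ from the start used in these cells, and these windows show letters only.

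Rpl39l is close to absent in one of the kinds of cell, and its whole coding sequence and that of Rpl39 are short enough to set side by side. Rpl39 lies on chromosome X (chrX:37082520-37085402, minus strand) and Rpl39l on chromosome 16 (chr16:10170226-10174911, plus strand) of GRCm38, each with 3 exons. The spliced coding sequences, read from GENCODE transcripts, are given with every base that differs in capitals.
Rpl39: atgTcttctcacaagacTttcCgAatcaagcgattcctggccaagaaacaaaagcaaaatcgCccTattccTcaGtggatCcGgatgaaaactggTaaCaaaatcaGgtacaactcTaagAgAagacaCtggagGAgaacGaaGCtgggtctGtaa
Rpl39l: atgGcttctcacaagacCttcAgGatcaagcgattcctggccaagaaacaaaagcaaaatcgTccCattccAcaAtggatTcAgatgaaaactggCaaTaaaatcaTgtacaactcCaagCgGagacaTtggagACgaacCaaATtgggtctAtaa
They differ at 23 of 156 bases, which fall in 21 of 52 codons, stop codon included.

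The family took a larger share of the RNA counted in fibroblasts than in macrophages. The members together held 2.78% to 2.93% of all counts in the 6 BMDM libraries and 4.40% to 6.07% in the 6 3T3 libraries. Their summed level was 31308, 30659 and 31425 CPM in WT BMDMs and 32033, 31602 and 31408 CPM in those labelled PHD2cko. In 3T3 cells it was 56281, 43954 and 43242 CPM in WT medium and 39915, 39536 and 39959 CPM in PHD2cko medium. The BMDM groups overlapped, whereas every library in WT medium lay above every library in PHD2cko medium. Replicate 1 in WT medium stood well above the rest.

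Levels between genes were compared per length, as CPM per kb of the median annotated protein-coding transcript. For Rps4l and Rpl37rt, annotated as transcribed processed pseudogenes, the length is that of their annotated transcript. In WT BMDMs the highest members were Rpl10, a large subunit protein joined late in assembly, at 1801 CPM per kb, Rpl13a, which can also leave the ribosome to silence inflammatory mRNAs, at 1125, and Rps24 at 1121. The lowest were Rpl39l at 0.149, Rps4l at 2.15 and Rpl7l1 at 65.7 CPM per kb, all of them paralogs. In 3T3 cells in WT medium the same measure was 2667 for Rpl13a, 1741 for Rpl10 and 1403 for Rps24, and 71.1 for Rpl7l1. Rps6, the small subunit protein phosphorylated by the S6 kinases, was at 597 CPM per kb in WT BMDMs and 2054 in 3T3 cells in WT medium.

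**Figure D1:**
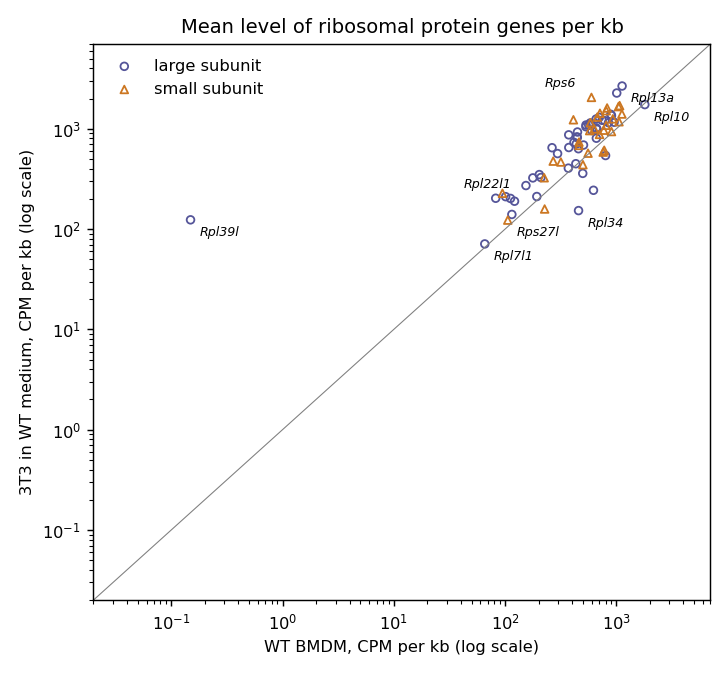
Mean level of each member over 3 libraries in CPM per kb, WT BMDMs on the horizontal and 3T3 cells in WT medium on the vertical axis, both on log scales, with circles for the large and triangles for the small subunit and a line where both are equal. Most members lie above the line, Rpl34 lies below it, Rpl39l lies far above it, and Rps4l, at 0 in 3T3 cells, is not drawn.

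Large and small subunit genes were compared by the ratio of their sums. The summed CPM of large over small subunit members was 1.41 ± 0.0119 in WT BMDMs, 1.42 ± 0.0161 in BMDMs labelled PHD2cko, 1.43 ± 0.0218 in 3T3 cells in WT medium and 1.45 ± 0.00643 in PHD2cko medium (SD, n = 3 each). Between WT BMDMs and 3T3 cells in WT medium the libraries overlapped, from 1.396 to 1.417 and from 1.401 to 1.441, whereas BMDMs labelled PHD2cko, at 1.406 to 1.436, lay below 3T3 cells in PHD2cko medium, at 1.441 to 1.453. This ratio depended on where reads of near-identical copies were counted. With the counts of copy rows added to their parents it was 1.46 ± 0.00751 in WT BMDMs and 1.32 ± 0.0192 in 3T3 cells in WT medium, and the libraries no longer overlapped.

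The first comparison asked whether the family moved with the PHD2cko label in macrophages. In BMDMs no member passed the threshold of an adjusted p under 0.05 (quasi-likelihood test of edgeR, adjusted by Benjamini-Hochberg over 14285 genes). Of all genes, 3.35% were called lower and 3.38% higher. At an unadjusted p under 0.05, 3 members differed, Rpl10a, Rpl12 and Rps12, all with higher values under the PHD2cko label, and DESeq2 and limma-voom also called 0 members. With the counts of near-identical copies added to their parents, 0 members had an unadjusted p under 0.05 by edgeR, and the log2 fold changes of Rps12, Rpl12 and Rpl10a went from 0.49, 0.23 and 0.15 to 0.06, 0.13 and 0.08. The median log2 fold change was 0.04 for the large and 0.05 for the small subunit, beside 0.000222 for all genes tested, and 58 members had a positive and 21 a negative value. In 22 members the 3 libraries labelled PHD2cko all lay above the WT libraries, against 16.3% of all genes, and in 7 all lay below, against 15.6%.

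Rpl22l1, the paralog of the RNA-binding protein Rpl22, had the most negative value. It was at 60.1, 62.2 and 58.2 CPM in WT BMDMs and at 57.5, 52.7 and 45.0 CPM in those labelled PHD2cko, without overlap (log2 fold change -0.22, SE 0.128, adjusted p = 0.399 by edgeR). Rpl22 was at 202, 213 and 206 CPM in WT and 226, 220 and 218 CPM under the PHD2cko label, also without overlap but in the other direction (log2 fold change 0.10, adjusted p = 0.586 by edgeR). Rpl12, which binds near the stalk of the large subunit, was at 96.0, 106 and 105 CPM in WT and at 116, 123 and 121 CPM under the label (log2 fold change 0.23, SE 0.0767, adjusted p = 0.102 by edgeR). Rps12 had the widest spread among the abundant members, with 169, 105 and 125 CPM in WT and 192, 175 and 193 CPM under the label, and its copy rows held 75.8% of the counts of gene and copies in WT BMDMs.

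The count for BMDMs differed when only the 6 BMDM libraries were fitted, which also changed the filter, to 12282 genes, and the normalization. In that fit 11 of 78 members were higher and 1, Rpl22l1, was lower, where 9.79% and 10.8% of all genes were called. The 11 included Rpl10a, Rpl11, Rpl12, Rps23 and Rps12, whose copy rows held 26.9% to 75.8% of the counts of gene and copies in WT BMDMs. In the fit of all 12 libraries the log2 fold change of Rpl11 went from 0.15 to 0.05 with copies added, and that of Rps23 from 0.11 to 0.03. Not all of the 11 moved so. In the same fit Rpl22, with 0.0299% of its counts on copies in WT BMDMs, went from 0.096 to 0.094. Rpl27a, with 46.5% on copies, went from 0.090 to 0.094.

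The second comparison asked whether fibroblasts changed the family when the medium came from BMDMs labelled PHD2cko. In PHD2cko medium 30 of 79 members were lower and none was higher by edgeR, where 6.75% of all genes were called lower and 8.93% higher. The 30 were 18 of the large and 12 of the small subunit. The median log2 fold change was -0.26 for the large and -0.28 for the small subunit, against -0.0046 for all genes, and 77 of 79 members had a negative value. In 66 members all 3 libraries in PHD2cko medium lay below all 3 in WT medium, against 16.5% of all genes. DESeq2 called 46 members and 6.06% of all genes lower, and limma-voom 35 members and 7.88%.

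These calls rested in part on a single library. Replicate 1 in WT medium exceeded the mean of replicates 2 and 3 in each of the 78 members detected in WT medium, by 0.07 to 0.61 with a median of 0.39 on the log2 scale. Rpl7l1 had the smallest and Rps12 the largest excess. Among genes that were no member or copy, the same difference was 0.15 for transcripts of 600 to 1000 nt and -0.21 above 4000 nt, so the library also differed by transcript length, and its part in the result was not tested. Without this library 19 members were lower, none was higher, the median fell to -0.10 for the large and -0.11 for the small subunit, and 71 members still had a negative value, with 7.41% of all genes called lower and 11.6% higher. Of the 30 members called at first, 18 were among these 19. In the 6 3T3 libraries alone 1 member was lower, where 2.59% of all genes were called lower and 4.23% higher, and without replicate 1 in WT medium 39 were lower in that fit, with 7.59% of all genes lower and 8.76% higher. Leaving out replicate 1, 2 or 3 in PHD2cko medium gave 6, 14 and 7 lower members, where 3.41%, 4.8% and 3.2% of all genes were lower. Leaving out replicate 2 or 3 in WT medium gave 46 and 56, where 5.4% and 6.46% were. The median over the members, -0.26 in the fit of all 12 libraries, was -0.27, -0.26 and -0.27 without replicate 1, 2 or 3 in PHD2cko medium and -0.25 in the 3T3 libraries alone, so the number of calls fell there with the median little moved, whereas without replicate 1 in WT medium it was -0.11.

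**Figure D2:**
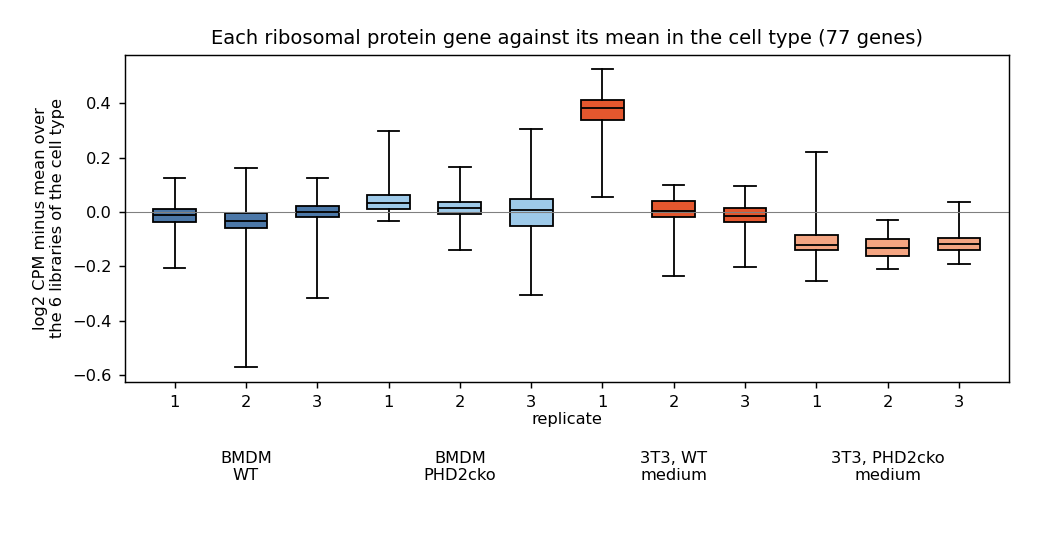
Log2 CPM of 77 members in each library minus the member's mean over the 6 libraries of its cell type, without Rpl39l and Rps4l, with boxes for the quartiles, a line for the median and whiskers to the lowest and highest member. The median of replicate 1 in WT medium stands above that of every other 3T3 library, and the 3 libraries in PHD2cko medium have medians below 0.

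Rps6 and Rpl23 are among the called members with the largest changes. Rps6 was at 2076, 1676 and 1659 CPM in WT medium and at 1436, 1395 and 1432 CPM in PHD2cko medium (log2 fold change -0.34, SE 0.0810, adjusted p = 0.0131 by edgeR), and every left-out library kept the call. Rpl23 was at 1110, 911 and 887 CPM against 773, 749 and 785 CPM (log2 fold change -0.33, adjusted p = 0.0111). In both genes the groups stayed apart when replicate 1 in WT medium was set aside, with every library in PHD2cko medium below replicates 2 and 3.

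Rps21 and Rpl39l had the largest changes among called members and were less stable. Rps21 was at 470, 332 and 332 CPM in WT medium and 286, 286 and 287 CPM in PHD2cko medium (log2 fold change -0.40, SE 0.111, adjusted p = 0.0296), and the call was lost in 3 of 6 fits with 1 library left out. Rpl39l was at 101, 76.9 and 73.3 CPM in WT medium and at 58.9, 67.3 and 66.8 CPM in PHD2cko medium (log2 fold change -0.38, SE 0.118, adjusted p = 0.0471), and the call was lost in 5 of 6 such fits.

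Members that did not follow the rest were also few. Rpl7l1, a nucleolar relative of Rpl7, was at 96.4, 92.6 and 90.4 CPM in WT medium and at 92.4, 90.8 and 93.9 CPM in PHD2cko medium, and its log2 fold change was -0.01 (SE 0.0439). Rpl36al was at 128, 96.8 and 92.5 CPM against 99.7, 96.2 and 100 CPM, and Rpl22l1 at 136, 96.4 and 94.4 CPM against 102, 99.9 and 103 CPM. For these 2 paralogs the libraries in PHD2cko medium lay at or above replicates 2 and 3 in WT medium, apart from 1 library of Rpl36al that lay between them.

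The macrophage markers named above moved with the medium. If all their counts came from macrophages, macrophage RNA would make up 0.0720% to 0.0850% of the libraries in WT medium. In PHD2cko medium it would make up 0.561% to 2.38%. The markers differed in WT medium, with 202, 365 and 266 counts of Mertk and 0, 5 and 6 of Adgre1, so the share there is uncertain. With that share subtracted from each 3T3 library, 22 members were lower, where 6.41% of all genes were, and none was higher, while the median over the members was -0.25 and 76 had a negative value. A TOP-like run was present in 12 of 23 members called lower and in 20 of 36 members not called, among those with a RefSeq entry.

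**Figure D3:**
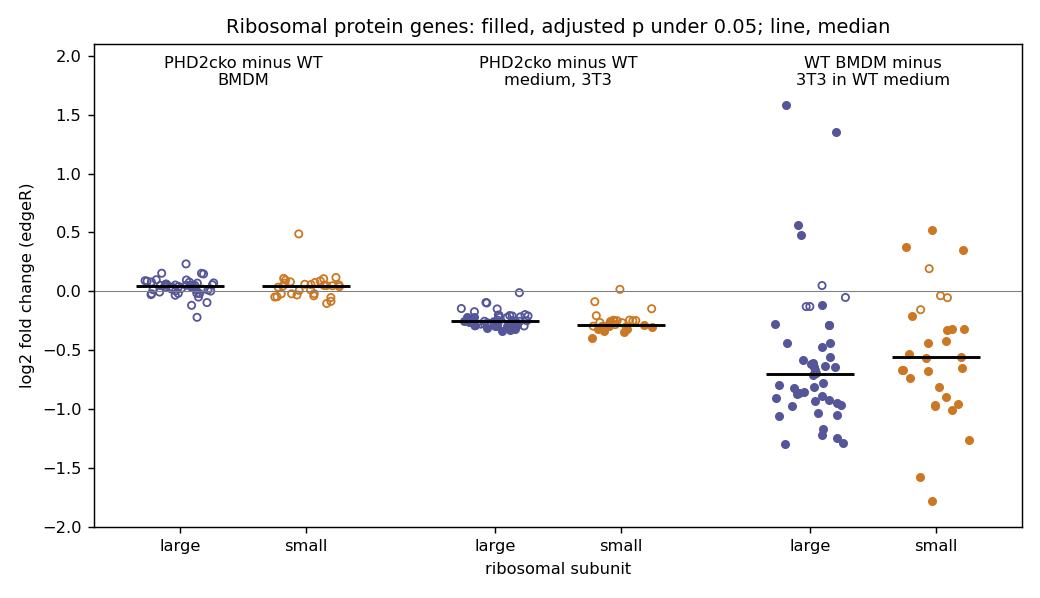
Log2 fold change of each member from edgeR in 3 comparisons, split by subunit, filled where the adjusted p was under 0.05, with a line at the median of all members of the subunit. Rpl39l and Rps4l are not drawn. Values in BMDMs lie around 0, those in 3T3 cells lie almost all below 0, and those between cell types spread from -1.78 to 1.58.

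The difference between both label effects, 3T3 minus BMDM, was tested in the same fit. Called below 0 were 9 members and called above 0 none, with 4.58% and 7.71% of all genes called. The value itself was negative for 75 members and positive for 4, with a median of -0.30. They included Rpl3, Rpl10a, Rpl12, Rpl22, Rpl23, Rpl28, Rpl31 and Rps23, with differences of -0.32 to -0.48 on the log2 scale, and in BMDMs all 9 had a positive log2 fold change. Without replicate 1 in WT medium 20 members were called below 0, with all 9 among them, and 1, Rpl22l1, above, where 5.86% and 10.1% of all genes were called, and the median over the members went to -0.12. With copies added 6 of the 9 were still called and no other, where 4.54% and 7.81% of all genes were called, and Rpl10a, Rpl12 and Rps23 were not (adjusted p = 0.0666, 0.0793 and 0.127 by edgeR). Without WT BMDM replicate 1, 2 or 3 the count was 2, 3 and 5 of 79, where 3.11%, 3.08% and 3.14% of all genes were called below 0. Without replicate 1, 2 or 3 of the BMDMs labelled PHD2cko it was 4, 4 and 3, where the share was 3.14%, 3.55% and 3.2%. It was 2 without replicate 1 and 2 without replicate 3 in PHD2cko medium, where the share was 3.13% and 3.11%, and 23 without replicate 3 in WT medium, where it was 4.89%. In the fits with 2 members called, their share of the 79 was no larger than that of all genes, while the median difference stayed at -0.30 in each of these 3 fits.

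The third comparison, WT BMDMs against 3T3 cells in WT medium, set the family in both kinds of cell side by side. These cells differ in strain, culture and time of sampling as well as in type, which cannot be told apart. Of the 79 members 63 were lower in BMDMs and 8 higher, where 44.9% and 40.4% of all genes were called. Rpl39l, among the lower, and Rps4l, among the higher, had under 10 counts in every library of 1 cell type and were members through the other alone, so their calls were set by the rule, and the other 77 had 62 lower and 7 higher. The median log2 fold change was -0.70 for the large and -0.56 for the small subunit, against -0.08 for all genes. Without replicate 1 in WT medium the medians were -0.58 and -0.41, with 62 members lower and 11 higher (61 and 10 of the 77), where 45.3% and 40.6% of all genes were called.

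Rps6 differed most among the abundant members. It was at 551, 519 and 502 CPM in WT BMDMs against the 1659 to 2076 CPM in WT medium given above (log2 fold change -1.78, SE 0.0835). Rps26, a small subunit protein at the mRNA exit, was at 291, 263 and 285 CPM in WT BMDMs and at 1016, 752 and 744 CPM in 3T3 cells (log2 fold change -1.58, SE 0.102). Rpl12 had a log2 fold change of -1.30 (SE 0.0763) and Rpl36a, at 132, 125 and 125 against 372, 288 and 278 CPM, of -1.29 (SE 0.0916). In each of these genes the groups lay far apart.

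Of 10 members with roles beyond the ribosome, 8 were lower in WT BMDMs than in 3T3 cells, beside 44.9% of all genes. In PHD2cko medium 3 of the 10 were lower (Rps6, Rps3 and Rpl26), beside 6.75% of all genes, and in BMDMs by label none was called, beside 3.35% lower and 3.38% higher of all genes. Rpl5 and Rpl11, which together with a small ribosomal RNA bind the p53 ligase Mdm2, were at 162 to 188 and 298 to 330 CPM in WT BMDMs and at 257 to 297 and 292 to 386 CPM in 3T3 cells in WT medium. Rps19, the gene most often mutated in Diamond-Blackfan anaemia, was at 388 to 414 against 572 to 744 CPM, and Rpl38, known for its part in translating Hox mRNAs, at 151 to 157 against 240 to 327 CPM. Rps27a, made as a fusion to ubiquitin, was at 541 to 564 against 617 to 835 CPM. Rps25, which some viral mRNAs need for initiation, was at 280 to 294 CPM in WT BMDMs and 227 to 292 CPM in 3T3 cells, and its groups overlapped. Rpl11 and Rps25 were not called.

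The 8 members higher in BMDMs were Rpl34, Rpl35a, Rpl7a, Rps7, Rpl29, Rps18, Rps2 and Rps4l. Of these, Rpl29, Rps18 and Rps2 were named after their values were seen. Rpl34 was at 282, 285 and 289 CPM in WT BMDMs and at 109, 90.2 and 86.6 CPM in 3T3 cells in WT medium (log2 fold change 1.58, SE 0.0717). Rpl35a was at 310, 315 and 328 CPM against 147, 111 and 115 CPM (log2 fold change 1.35, SE 0.0854). These values came from the gene's own row, and in 3T3 cells much of the family's signal lay on rows of near-identical copies.

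Copy rows were rows of genes outside the naming rule whose transcript matched a member's coding sequence at 90% identity or more over at least 70% of its length. There were 765 of them for 73 members, most annotated as processed pseudogenes. For each 100 counts of the members they held 12.2 to 12.6 counts in BMDMs and 24.9 to 26.2 in 3T3 cells. Reads of a gene and of such a copy can be split between both rows by the counting, so the level of either row is uncertain. The same holds between the members Rpl37 and Rpl37rt, which match by these criteria but were kept as rows of their own.

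For several members the copies were counted almost only in 3T3 cells. Rpl34 had 13795 counts on its own row and 7 on its copies in the 3 WT BMDM libraries, and 6273 and 14563 in the 3 3T3 libraries in WT medium. The copy with most counts, Rpl34-ps1, had 0 in each WT BMDM library and 5282, 5515 and 3744 in WT medium. Rps2-ps13, 99.21% identical to the coding sequence of Rps2, had 6, 3 and 3 counts in WT BMDMs and 27016, 29746 and 20037 in WT medium. Gm10260, a copy of Rps18, had 1, 2 and 0 against 8426, 9506 and 6443 counts. For other members both cells counted the copies alike, as for Rpl5, whose copies held 79.4% of the counts of gene and copies in WT BMDMs and 80.8% in 3T3 cells in WT medium.

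**Figure D4:**
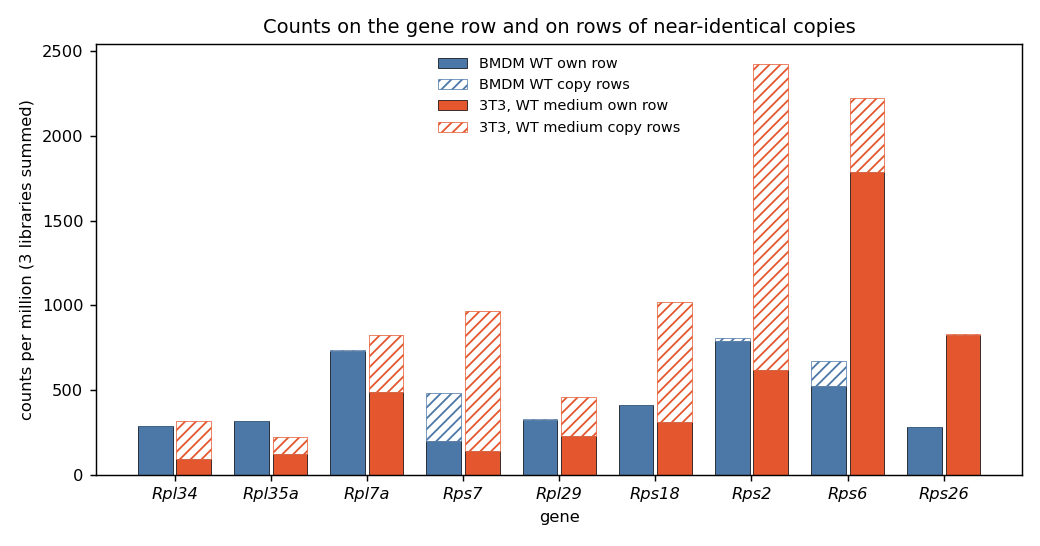
CPM, from 3 libraries summed, on the row of each gene (filled) and on the rows of its near-identical copies (hatched), in WT BMDMs and in 3T3 cells in WT medium. Copies hold most of the bar of Rpl34, Rps7, Rps18 and Rps2 in 3T3 cells, and almost none of it for Rps26.

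With copies added to their parents, 69 members were lower in BMDMs and 2 were higher (68 and 1 of the 77), where 44.9% and 40.5% of all genes were called. All 63 members lower before were among the 69. Of the 8 higher before, 4 were then lower, with log2 fold changes of -1.01 for Rps7, -0.49 for Rpl29, -1.31 for Rps18 and -1.60 for Rps2. Rpl34 at -0.16 and Rpl7a at -0.18 were no longer called, and Rpl35a, now at 0.50 after 1.35, remained higher, as did Rps4l, whose call the rule had set. In the 39 members with under 1% of their counts on copies in both groups, Rpl39l, Rps4l, Rpl37 and Rpl37rt set aside, 36 were lower and none was higher, with a median of -0.67. Adding copies left the comparison by medium similar, with 33 members lower and none higher, where 6.89% and 9.07% of all genes were called.

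The paralogs followed 3 patterns. Rpl39l was close to absent in macrophages, with 0, 4 and 1 counts in WT BMDMs and 4, 2 and 9 under the PHD2cko label, against 1984, 2121 and 1386 counts in 3T3 cells in WT medium. Its level was 803 times higher in the 3T3 libraries than in WT BMDMs (95% exact interval 344 to 2470, counting error only). Of the 5 counts in WT BMDMs 4 lay in replicate 2, and without that library the fitted log2 fold change of WT BMDMs against 3T3 cells, which is no bound, went from -9.57 to -11.10. Per kb it stood at 14.2% ± 0.517 of Rpl39 in 3T3 cells in WT medium and at 13.1% ± 1.11 in PHD2cko medium (SD, n = 3 each). Rps4l, annotated as a transcribed processed pseudogene of the Rps4x family, was the reverse, with 34, 38 and 26 counts in WT BMDMs and 0 in all 3 libraries in WT medium, which makes it at least 44.7-fold higher in BMDMs at a floor of 3 counts over the group. Even there it reached only 0.201% of Rps4x per kb. Rpl39l and Rps4l were members through 1 cell type alone, so the direction of these folds was set by the rule.

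Rpl36al and Rpl7l1 were present in both cells in a different proportion to their parents. Rpl36al stood at 43.6% ± 2.31 of Rpl36a per kb in WT BMDMs, 38.0% ± 1.21 under the PHD2cko label, 21.6% ± 0.393 in 3T3 cells in WT medium and 25.1% ± 0.260 in PHD2cko medium (SD, n = 3 each). Rpl7l1 stood at 9.35% ± 0.0961, 8.87% ± 0.463, 5.51% ± 0.470 and 6.42% ± 0.142 of Rpl7 in the same order. The log2 ratio of paralog to parent was higher in the 6 BMDM than in the 6 3T3 libraries by 0.81 for Rpl36al and by 0.62 for Rpl7l1. Both differences had p = 0.00216, the smallest the two-sided exact permutation test allows, and an adjusted p = 0.00974 over the 18 ratio tests of this permutation test. The 18 include ratios of Rpl39l and Rps4l, which passed the rule for members through 1 cell type alone, so no test is read from them. Rpl39l and Rps4l also reached this smallest p between cell types, which lowers the adjusted p of Rpl36al and Rpl7l1.

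The ratio of Rpl22l1 to Rpl22 differed by -0.05 on the log2 scale between BMDM and 3T3 libraries (exact permutation test p = 0.649) and that of Rps27l to Rps27 by 0.12 (exact permutation test p = 0.0758, adjusted p = 0.15). The first value averages 2 opposite differences. Rpl22l1 stood near its parent per kb, at 111% ± 2.63 in WT BMDMs, 88.8% ± 9.38 under the PHD2cko label, 95.4% ± 7.44 in WT medium and 110% ± 2.32 in PHD2cko medium (SD, n = 3 each). It lay higher in WT BMDMs (108% to 113%) than in WT medium (90.6% to 104%), and lower in BMDMs labelled PHD2cko (78.5% to 96.9%) than in PHD2cko medium (108% to 112%), each without overlap. Rps27l, a p53 target, stood at 9.82% to 11.4% of Rps27 in the group means.

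By label, 3 against 3 libraries cannot give an exact p under 0.1. The ratio of paralog to parent was lower in BMDMs labelled PHD2cko for Rpl22l1 (by -0.32 on the log2 scale), Rpl36al (-0.20) and Rpl7l1 (-0.08), and higher in PHD2cko medium by 0.21, 0.22 and 0.22 for the same pairs. All 6 of these differences had p = 0.1 in the exact permutation test, that is, no overlap between the groups, and an adjusted p = 0.15.

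**Figure D5:**
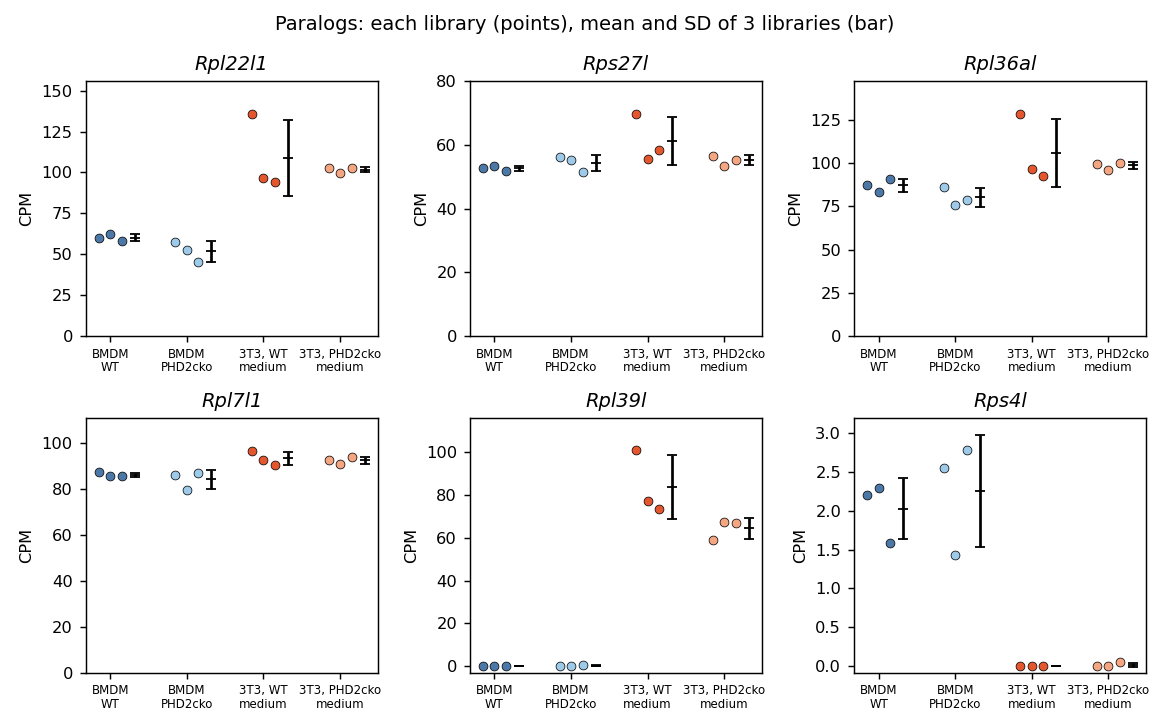
Level of 6 paralogs in CPM in each library, by group, with the mean and SD of 3 libraries beside the points, and vertical axes that begin at 0 or just below it. Rpl39l is near 0 in both BMDM groups and Rps4l near 0 in both 3T3 groups, while the other 4 are present throughout.

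Genes that work with the family were read from lists chosen apart from their symbols. Their counts stand beside 6.75% of all genes lower and 8.93% higher by medium, 7.41% and 11.6% without replicate 1 in WT medium, 3.35% and 3.38% in BMDMs by label, and 44.9% and 40.4% between cell types. Of 7 ribosomal proteins outside the naming rule, 6 were lower in PHD2cko medium (median log2 fold change -0.30), and 3 were lower (median -0.15) without replicate 1 in WT medium. The leading ones were Rplp1 (-0.35), Rplp0 (-0.32) and the laminin-binding protein Rpsa (-0.32). Rplp0 was also the only one of the 7 called in BMDMs by label (log2 fold change -1.27, SE 0.0873). Copy rows were collected for members alone, so the values of these 7 come from their own rows, without copies added. Of 22 translation factors with TOP mRNAs, 11 were lower in PHD2cko medium (10 without replicate 1 in WT medium) and none in BMDMs by label. The median of the 22 by medium was -0.225, and -0.108 without that library. The 11 were led by Naca (-0.29), part of the complex that meets the nascent chain, and the elongation factor subunit Eef1g (-0.28).

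Of 39 ribosome assembly genes tested, 4 were lower and 1 was higher in PHD2cko medium, beside the 6.75% and 8.93% of all genes, with a median of -0.06. Without replicate 1 in WT medium 1 was lower and 1 higher, and the median turned to 0.0068. Nop10, a subunit of the pseudouridine-forming particle, was lower by 0.36 on the log2 scale, and Ubtf, an activator of ribosomal RNA transcription, was higher by 0.16. Between cells 37 of 39 were lower in WT BMDMs, with a median of -1.13, led by Nop58 (-2.76) and Dkc1 (-2.54). In BMDMs by label Sdad1 was lower (-0.55) and Tsr1 higher (0.30).

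Of 19 regulators of the family, Myc was higher (log2 fold change 1.00, SE 0.237) and the TOP mRNA-binding protein Larp1 lower (-0.24, SE 0.0429) in BMDMs labelled PHD2cko, by edgeR's adjusted p of 0.0236 and 0.00391. In PHD2cko medium Akt1s1 (-0.35) and Ddit4 (-0.33), both inhibitors of mTOR signalling, and Zfp692 (-0.29) were lower and none of the 19 was higher, whereas 6 were lower and 2 higher without replicate 1 in WT medium. Of 12 genes of the p53 response to ribosomal stress, 8 were lower in PHD2cko medium and none higher, led by Ccng1 (-0.57) and Cdkn1a (-0.53), and 8 were lower and 1 higher without replicate 1 in WT medium. In BMDMs by label 3 of the 12 were lower, among them Zmat3 (-0.34), and Sesn1 was higher (0.19).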

How the data were processed

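RNA from 12 libraries, 3 in each of 4 groups, had been sequenced. The authors deposited estimated counts per gene, made with Kallisto on GRCm38 (versions not given in the sources used here) without normalization or filter, as whole numbers, for 32544 genes, with 0 columns left unmapped. Genes were kept by filterByExpr (14285), libraries were normalized by TMM and all 12 were fitted together with edgeR 4.0.16 in R 4.3.3 (quasi-likelihood test, two-sided, Benjamini-Hochberg adjustment over all genes, threshold 0.05). CPM are counts over the effective library size, except the marker sums, which are over the total count. limma 3.58.1 (voom, the test of the study) and DESeq2 1.42.0 were alternatives. Lengths, positions and coding sequences came from GENCODE M21, in which 31400 symbols matched, and copies from blastn at 90% identity over 70% of the coding sequence. Paralog ratios used log2 of CPM plus 0.05 and exact permutation tests over 6 pairs and 3 comparisons. The pipeline was tested on simulated data. Counting error alone is covered by intervals and floors.

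The members and lists were chosen with earlier results of these data known. Genes named are all paralogs and parents, members with known further roles, per comparison and direction up to 5 called members with the largest change, at least 1 CPM and no overlap (overlap was not asked for the difference), the 3 highest and lowest per kb in WT BMDMs, and up to 3 called genes per list, with Rpl27a, Rpl28, Rpl29, Rpl31, Rpl37, Rpl37rt, Rps2, Rps12 and Rps18 added after their values were seen. Some genes under this rule, and an allele that both BMDM groups share, are not reported here. Alternatives were size factors from DESeq2, TMM without members and copies, DESeq2, limma-voom, both filters on low counts, only the groups compared, a replicate block, leaving out each library, copies added to the parent, the macrophage share subtracted, CPM over the total count and a pseudocount of 0.5. Another 2 fits without replicate 1 in WT medium were chosen after seeing the data.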

Additional observations from a re-analysis of the deposited data

Results flagged for a closer look

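In several members the effect of the medium in 3T3 cells differed from the effect of the label in BMDMs in the test of the difference itself (edgeR). On the log2 scale, 3T3 minus BMDM, it was -0.44 for Rpl10a, -0.48 for Rpl12, -0.39 for Rpl22, -0.39 for Rpl23 and -0.36 for Rpl28. It was -0.32 for Rpl3, -0.38 for Rpl31 and -0.42 for Rps23. With the counts of near-identical copies added to their parents, Rpl10a, Rpl12 and Rps23 were not called (adjusted p = 0.0666, 0.0793 and 0.127 by edgeR). Without replicate 1 in WT medium the median difference over the members went from -0.30 to -0.12.

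Counts also appeared in rows that had too few to be members. Rps12l1, whose coding sequence is identical to that of Rps12, had 63 counts in replicate 3 of the BMDMs labelled PHD2cko and 0 in the other 11 libraries. Rpl6l had up to 7 counts in BMDMs labelled PHD2cko and up to 3 in WT BMDMs.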

How the results depend on the processing

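The count in 3T3 cells by medium was 30 lower, and 46 with DESeq2, 1 in the 6 3T3 libraries alone, 19 with copies added and without replicate 1 in WT medium, 39 in the 3T3 libraries without it, and 6 to 56 with each library left out. The difference of label effects had 9 members below 0, and 16 with DESeq2, 6 with copies added, 20 below and 1 above with copies added and without that library, and 2 to 23 below and 0 to 1 above with each library left out. In BMDMs by label the 6 libraries alone gave 1 lower and 11 higher. Members higher in WT BMDMs than in 3T3 cells numbered 8, and 2 with copies added or 5 when replicate 1 in WT medium was also left out. Without replicate 1 in WT medium the median log2 fold change by medium went from -0.26 to -0.10 for the large and from -0.28 to -0.11 for the small subunit.

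Same-numbered libraries correlated between -0.113 and 0.048, so the numbers do not pair them. In the fit with a replicate block, 22 members were lower in PHD2cko medium, 8 were below 0 in the difference, and 1, Rps12, was higher in BMDMs by label, with 0 lower.

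Reversed values, all between WT BMDMs and 3T3 cells, came with copies added, without and with replicate 1 in WT medium left out: Rpl29 -0.49 and -0.38, Rpl34 -0.16 and -0.021, Rpl7a -0.18 and -0.045, Rps18 -1.31 and -1.18, Rps2 -1.60 and -1.47, Rps7 -1.01 and -0.89.

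Summed CPM of the members was 34980 in WT BMDMs, 35540 under the PHD2cko label, 60290 in WT medium and 49880 in PHD2cko medium with copies added, and 28080, 28840 and 44480 in the groups other than WT medium over the total count. The large to small ratio with copies was 1.462, 1.467, 1.315 and 1.342 in the same order of groups.

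A row at 3 counts stood at no more than 0.205 CPM. Rps4l in 3T3 cells lay below it, and Rpl39l in BMDMs had 0 to 9 counts, up to 0.472 CPM.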
